A study of Rattus norvegicus with 67 samples.

Results

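The windows of low histone signal were 1 kb stretches of the rat genome where few sperm chromatin fragments were recovered with an antibody to histone H3, without being read-free. They were chosen from the level of each window in 9 animals of the control lineage without disease. The level was the read count scaled to the total of the library (RPM), averaged over those 9 animals and divided by 0.380 RPM, the median over the windows of chromosomes 1 to 20 with any read in them, so that a level of 1 is that of the median window. A window was a member when its level was at least 0.2 and below 0.5, and when both adjacent windows were at 0.2 or more, which kept members away from gaps without reads. This gave 93853 members among the 2618741 windows of chromosomes 1 to 20 (3.58%) and the 2782040 windows of the whole table. A further 28431 windows lay in the same range beside a window below 0.2 and were left out.

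In maturing sperm most histones are replaced by protamines, small basic proteins that pack the DNA tightly. A minority of nucleosomes stays behind, and these retained histones can carry marks into the fertilized egg. Histone retention is measured by chromatin immunoprecipitation sequencing (ChIP-seq), in which fragments bound to a histone are pulled down with an antibody and counted along the genome. A low count in such a library can come from few retained nucleosomes or from sequence to which few reads can be assigned. No library without immunoprecipitation was used here, so these origins cannot be told apart, and neither can fewer sperm with a nucleosome at a place and fewer nucleosomes in each sperm. Histone counts hold no expression marker with which to check that the cells were sperm.

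The animals were males of the F3 generation of outbred Hsd:Sprague Dawley SD rats, examined at 1 year of age, with sperm taken from the cauda epididymis. The females of the F0 generation had received the herbicide atrazine at 25 mg/kg on gestation days 8 to 14 (atrazine lineage) or the vehicle DMSO (control lineage), and no later generation was dosed. Of the 50 atrazine lineage animals with counts, 19 had no disease, 5 had a lean phenotype, 5 late puberty, 4 testis disease, 3 kidney disease and 14 multiple disease. The 16 control lineage animals were the 9 without disease that set the rule and 7 with a disease, of which 3 were obese, 2 had multiple disease, 1 had late puberty and 1 kidney disease. The treatment tag of the labels goes against the lineage for the control animals and for 13 atrazine lineage animals, and the lineage given in title and lineage tag was followed. Each animal is 1 library, so the spread given below is between animals of an outbred stock.

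The library totals ran from 19909382 to 239635003 reads with a median of 57082911.5, and the median member held 9 reads in the median animal among the 57 that the rule did not use. One library stood apart. Animal M48 (multiple disease, 20151792 reads) had no read in 26.4% of the members, while 7.31% of them were at a level of 2 or more, and its median over windows of median level, here those from 0.8 to below its inverse, was 0.391. Animal M28 (lean, 26487836 reads) had 10.7% of members at 1 or more and 8.84% without a read. In M6 and M16, animals of the rule with 27658385 and 29309444 reads, 8.11% and 7.27% were without a read. At 1 or more were 1.00% and 0.766% in them. The comparisons between groups that hold M28 or M48, and the spread between animals, are also given without M28 and M48.

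The members were low in animals that had no part in choosing them. Averaged over the members, the level was 0.448 in the 57 other animals, against 0.404 in the 9 animals of the rule, a difference that the choice of members on those 9 contributes to. The 7 control lineage animals with a disease ran from 0.431 to 0.456 with a median of 0.433. Atrazine lineage animals without disease ran from 0.427 to 0.479 with a median of 0.444, overlapping the controls. The other groups lay in the same range apart from M28 and M48. Lean animals were at 0.433 to 0.501 with a median of 0.451, and their highest without M28 was 0.465. Kidney disease animals were at 0.437 to 0.452, testis disease animals at 0.440 to 0.449 and late puberty animals at 0.438 to 0.452. Animals with multiple disease ran from 0.435 to 0.586, and from 0.435 to 0.452 without M48, whose level is 0.957 when members and levels are taken with TMM library sizes. The members held 1.52% to 2.09% of the reads of the table in the 57 animals, with a median of 1.58%, and up to 1.71% without M28 and M48. Each of these values is a description of the libraries, since the members were chosen and no test over them as a list was made.

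**Figure D1:**
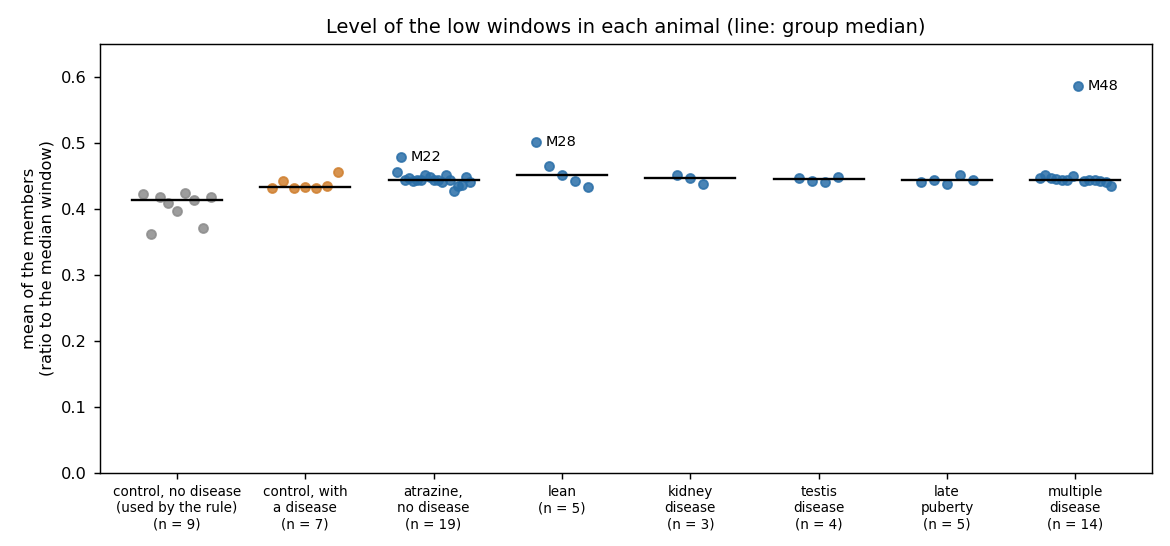
Mean level over the 93853 members in each animal (vertical axis, ratio to the median window, starting at 0), by group (horizontal axis), with 1 point per animal and a line at the group median. Points of all groups lie between 0.362 and 0.501 except M48 at 0.586, and the 9 animals of the rule include the lowest points.

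Taken window by window, 67.8% of the members were also below 0.5 in the mean of 55 of these animals, without M28 and M48, and 31 members were at 0.8 or more. The depth of the low level followed the rule's own range. The 11196 members at 0.2 to below 0.3 in the rule's animals averaged 0.289 in those 55 animals, and 99.4% of them were below 0.5. The 26050 members at 0.3 to below 0.4 averaged 0.407, with 86.3% below 0.5. The 56607 members at 0.4 to below 0.5 averaged 0.492, with 53.1% below 0.5. The edge of the range separated windows that differed little. On chromosome 5 the member at 163598001 to 163599000 lay just under the limit and was at 0.448 in the 57 other animals, and on chromosome 16 the window at 37799001 to 37800000, just over it, was at 0.507 in them. At the lower edge the member on chromosome 4 at 98786001 to 98787000 was at 0.173 in the other animals, and the window on chromosome 8 at 43015001 to 43016000, just under 0.2, was at 0.170.

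The member with the most reads in each of these ranges showed how far single windows departed from the list. In the lowest range it was the window on chromosome 16 at 64977001 to 64978000, with 1468 reads over 57 animals and levels from 0 over a median of 0.331 to 10.5 in M24, an atrazine lineage animal without disease. In that window 19 of 57 animals were at 0.5 or more, while the 9 animals of the rule were at 0.0986 to 0.538. In the middle range the window on chromosome 12 at 35035001 to 35036000 had a median of 0.608, a lowest level of 0.0977 and a highest of 2.99 in M17, a control lineage animal with multiple disease. In the upper range the window on chromosome 1 at 80441001 to 80442000 ran from 0.284 over a median of 0.829 to 10.4 in M48, with the next highest animal at 3.37. These windows were chosen for their reads in the 57 animals, and in each of them the mean of the rule's animals was low while at least 1 of the 9 was above 0.5.

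Most runs of members were short. Joining directly adjacent members gave 49899 stretches, of which 32041 (64.2%) were 1 window, with 34.1% of the members, and 639 had 10 or more, with 10.5%. In the rule's own animals, whose values set a lower limit for the neighbours and count adjacent members for each other, 49.6% of the windows next to a member were at 0.2 to 0.5, 34.3% at 0.5 to 0.8 and 14.8% at median level, which is given as a description. Around single members, the median level in the 55 animals was 0.470 at the member, 0.666 and 0.668 at 1 kb on either side, 0.849 and 0.856 at 5 kb, and 0.941 at 20 kb before it. Windows of median level had flanks at about their own level. The stretches of 10 or more windows lay in a different setting. Their outermost window had a median of 0.410 and the windows 5 kb inside 0.369, and the level outside them was 0.497 at 1 kb, 0.458 at 5 kb and 0.477 at 20 kb. The window next to a single member, or just outside a stretch, is by definition not a member, so the step at 1 kb is partly fixed by the classes. Farther out, single members had surroundings with a median of 0.941 and a mean of 0.839 at 20 kb before them. Around windows of median level that mean was 0.978. Long stretches lay in surroundings whose median was low over at least 20 kb.

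**Figure D2:**
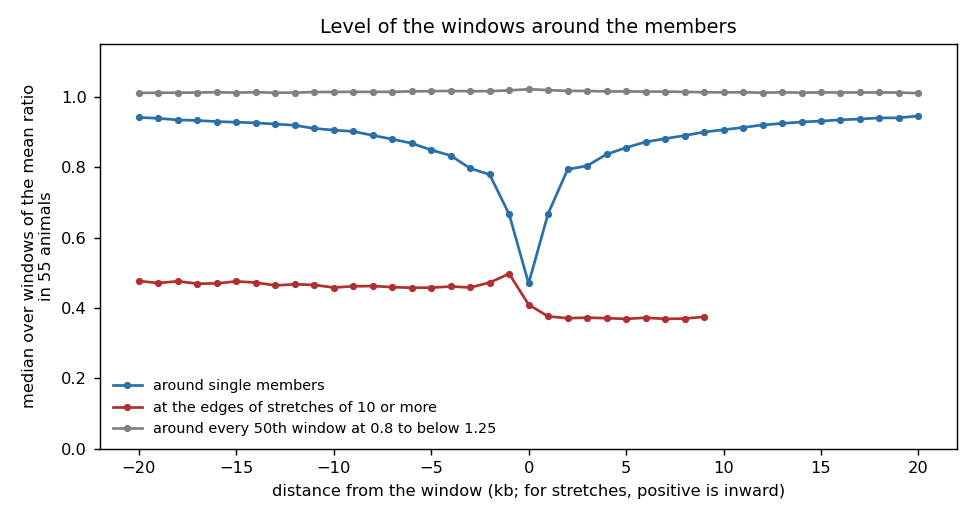
Median level in 55 animals (vertical axis, ratio to the median window, starting at 0) against distance in kb (horizontal axis) from single members, from the edges of stretches of 10 or more members (positive distance is inward) and from every 50th window of median level. The line for single members falls to 0.470 at distance 0, and the line for stretches stays between 0.369 and 0.497 on both sides of the edge.

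The stretches of 10 or more windows held 9842 members, and they were lower than the rest in the animals that the rule did not use: the median of their members was 0.365 in the 55 animals against 0.470 for single members, and 89.4% against 63.6% were below 0.5. Members lay closer to windows without a read than windows of median level did, with a median distance of 35 kb against 61 kb, and windows at a level of 2 or more lay at 31 kb. Within 5 kb of such a window were 10.3% of the members, 4.87% of the windows of median level and 10.5% of the windows at 2 or more. Short distance to unread sequence was therefore shared with windows of high signal.

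The members were spread over all 20 autosomes, unevenly. Chromosome 12 had the largest share of its windows among the members (6.41%), followed by chromosome 1 (5.05%), chromosome 8 (4.62%) and chromosome 20 (4.49%). Chromosome 2 had the smallest share (2.67%). In 524 bins of 5 Mb the share of windows with reads that were members ran from 0.628% to 20.3% with a median of 2.92%, and 17 bins were above 10%. The highest bin was the first 5 Mb of chromosome 13 (20.3%). It was followed by 100 to 105 Mb of chromosome 4 (18.05%), 115 to 120 Mb of chromosome 1 (17.7%), 40 to 45 Mb of chromosome 8 (17.5%) and 5 to 10 Mb of chromosome 12 (17.5%). A block of chromosome 1 from 75 to 78 Mb held 305 members among 3000 windows (10.2%), whose level ran from 0.385 over 0.481 to 0.553 in the other animals. Positions are those of the Rnor_6.0 assembly. Base composition, repeats and gene models at these places were not analysed here.

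**Figure D3:**
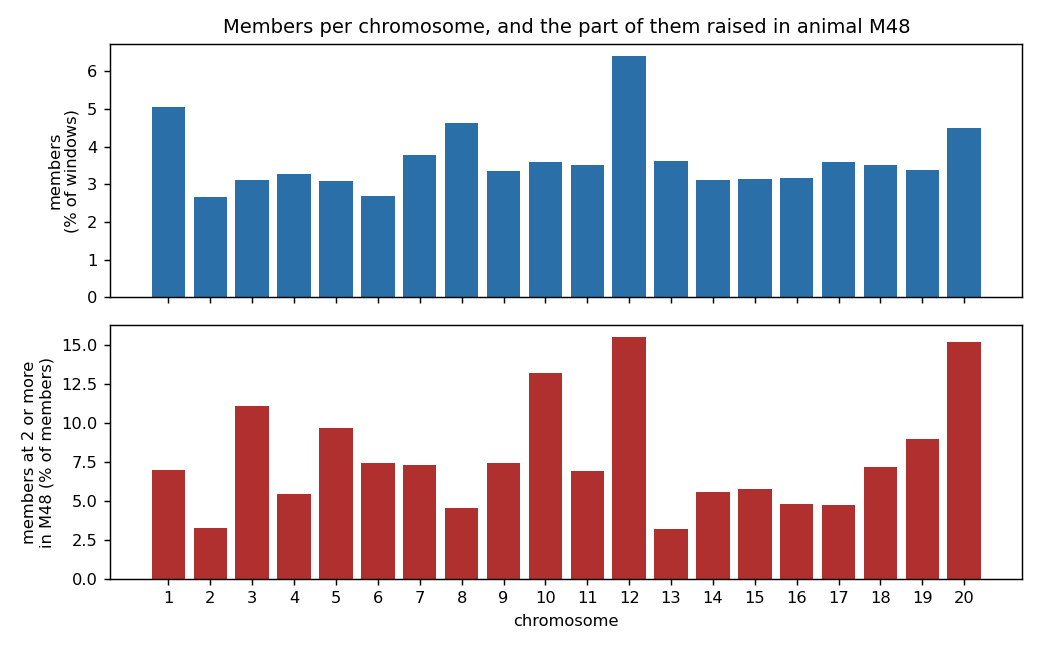
Upper panel, members as a percentage of the windows of each chromosome; lower panel, members at a level of 2 or more in animal M48 as a percentage of the members of that chromosome (both axes start at 0). Chromosome 12 is highest in both panels, at 6.41% and 15.5%, and chromosome 20 reaches 15.2% in the lower panel.

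The 10 longest stretches had 45 to 55 windows each, the first by position being taken from 2 stretches of 45. The longest lay on chromosome 4 from 161158001 to 161213000, with 55 windows and levels of 0.322 to 0.472 in the 57 animals around a median of 0.376. On the same chromosome a stretch of 53 windows from 161310001 to 161363000 ran from 0.222 over 0.374 to 0.456. All 57 animals were at 0.3 to below 0.7 in the first and 55 in the second, so on this scale both were low, and read, in each animal. The scale is that of library totals, on which M48's windows of median level were themselves at 0.391. The values of M48 are thus not low by the same measure as those of the other animals. A stretch of 51 windows on chromosome 9 from 95177001 to 95228000 had levels of 0.238 to 0.409 around 0.336. One of 49 windows on chromosome 8 from 96266001 to 96315000 had levels of 0.265 to 0.437 around 0.352. None of the 57 animals reached 0.7 in any of these 4 stretches.

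Among the 4 stretches above M48 was the lowest animal on chromosome 4 at 161310001 (0.222) and on chromosome 9 (0.238), and the highest on chromosome 8 at 96266001 (0.437). In the other long stretches M48 was the lowest animal, except in 1 where it was the highest. On chromosome 8 from 41998001 to 42051000 (53 windows) M48 was at 0.135 and the other animals ran up to 0.430 around a median of 0.357. On chromosome 14 from 65428001 to 65476000 (48 windows) M48 was at 0.0897, M28 at 0.201, M42 at 0.205 and M22 at 0.219, with a median of 0.353 over the 57 animals. On chromosome 13 from 319001 to 365000 (46 windows) M48 was at 0.0851 and the median was 0.312. The same chromosome held a stretch from 6071001 to 6117000 (46 windows) with M48 at 0.119 and a median of 0.333, and chromosome 4 one from 1683001 to 1728000 (45 windows) with M48 at 0.104 and a median of 0.341. On chromosome 18 from 29699001 to 29752000 (53 windows) M48 was highest at 0.556, M22 followed at 0.439, and the median was 0.345. On the scale of library totals M48 thus lay apart from the other animals in both directions. Its windows of median level were at 0.391 on that scale, so its low values are not on the measure of the other animals. They also differed between stretches, from 0.0851 on chromosome 13 to 0.339 in the longest stretch, on chromosome 4. In M28 and M22, also low on chromosome 14, the windows of median level were at 0.893 and 0.950. What lies behind these low values was not tested.

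In the rule's animals the 6859 members at 2 or more in M48 had a median of 0.425, and the remaining members one of 0.422. The same members were above the remaining ones, by their median, in 22 of the 56 other animals, most clearly in a few. Medians of such low counts often tied. By their mean these members were above the rest in 27 of the 51 animals not named next, and in those named. Their median was 1.19 in M28, 0.877 in M22, 0.668 in M42, 0.610 in M17 and 0.608 in M20, while these animals had medians of 0.397, 0.402, 0.401, 0.388 and 0.434 over the remaining members. The other 51 animals had medians of 0.355 to 0.572 over these members around 0.426, and 0.355 to 0.450 around 0.422 over the rest. M28 and M42 are lean animals, M22 and M20 atrazine lineage animals without disease, and M17 a control lineage animal, so the raised level crossed group and lineage. Among the members of a chromosome the share at 2 or more in M48 was largest on chromosome 12 (15.5%), chromosome 20 (15.2%) and chromosome 10 (13.2%), and smallest on chromosome 13 (3.17%) and chromosome 2 (3.23%). Among windows of median level 13.6% were at 2 or more in M48, above the 7.31% of the members. What sets these libraries apart was not tested.

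Stretches of 5 or more members were compared animal by animal, to see whether a low mean was low in each animal or a mixture of animals. Of 3131 such stretches, 1249 (39.9%) had every one of the 55 animals at 0.15 to below 0.7. A mixture of at least 5 animals below 0.15 and at least 5 at 0.7 or more was seen in 9 stretches with 64 windows. For single windows the variance between the 57 animals was 1.84 times the counting (Poisson) variance at the median member and 1.78 times without M28 and M48, against 2.02 times at windows of median level. Beyond counting, the coefficient of variation at the median window was 29.6% for members, 21.5% for windows of median level and 15.5% for windows at 2 or more, whose median read counts per animal were 10.2, 22.2 and 56.8. Without M28 and M48 these coefficients were 28.1%, 20.3% and 13.8%.

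The 10 stretches with the largest variance between animals relative to counting fell into 2 kinds. In 6 of them M48 stood above all others, followed by M28 and then M22. On chromosome 3 from 9383001 to 9406000 (23 windows) M48 was at 3.41, M28 at 1.48 and M22 at 1.08, with a median of 0.450 and a lowest level of 0.264. On chromosome 20 from 6822001 to 6841000 (19 windows) the same animals were at 3.54, 1.43 and 1.11, with a median of 0.438. On chromosome 12 from 22002001 to 22035000 (33 windows) they were at 2.43, 1.04 and 0.738, with a median of 0.417. Shorter stretches of this kind lay on chromosome 12 from 52670001 to 52680000, where M48 was at 4.38, and on chromosome 20 from 3841001 to 3849000 and from 5780001 to 5786000, where it was at 4.81 and 5.44. Without M28 and M48 the variance on chromosome 3 from 9383001 fell from 76.3 to 15.1 times counting, and none of these 6 stretches was among the 10 most variable.

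In the other 4 stretches the spread did not come from M48. On chromosome 13 from 33918001 to 33931000 (13 windows), 20 of the 57 animals were below 0.15, 1 at 0.15 to below 0.3, 28 at 0.3 to below 0.7 and 8 at 0.7 or more, from 0.0211 in M46 to 1.28 in M35. A second stretch of that chromosome, from 33971001 to 33981000 (10 windows), had 21, 1, 25 and 10 animals in these ranges. Another between them, from 33948001 to 33955000 (7 windows, chosen after its values were seen), had 19, 1, 26 and 11. The animals were the same: 51 of 57 stayed in 1 range of below 0.15, 0.15 to below 0.7 or 0.7 and more in all 3 stretches. These were 19 animals below 0.15, 24 in between and 8 at 0.7 or more. Animals with under 0.15 in the first stretch were 10 of 19 without disease, 3 of 5 lean, 4 of 14 with multiple disease, 1 of 4 with testis disease, 1 of 5 with late puberty, 0 of 3 with kidney disease and 1 of 7 controls with a disease. Animals at 0.7 or more were found among those without disease (2), with late puberty (2), with multiple disease (1) and among the controls (3), so the levels were not those of a single group or lineage. No test was made, since the stretches were chosen for their spread.

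A few animals carried the remaining pair of stretches. On chromosome 7 from 4538001 to 4543000 (5 windows) 49 of 57 animals were below 0.15 and 5 at 0.7 or more, with a median of 0.0235 and a highest level of 1.08 in M39. On chromosome 4 from 13596001 to 13608000 (12 windows) 47 were below 0.15 and 1, M20, was at 1.10. In the rule's animals the chromosome 7 stretch was below 0.15 in 6 and at 0.7 or more in 3, so its place among the members came from those 3. With M28 and M48 left out, a choice made after seeing the data, 3 further stretches on chromosome 7 entered the 10 most variable, starting at 6528001, 5918001 and 4642001. M17, M20, M23, M25, M39 and M66 were at 0.3 or more in all 5 stretches of chromosomes 4 and 7, and 50 of 57 animals were below 0.3 in all 5. The 6 animals were 3 without disease, 1 lean, 1 with kidney disease and 1 control lineage animal. Also on that list were a stretch of chromosome 20 from 4053001 to 4059000, with 24 animals below 0.15 and a highest level of 1.22 in M66, and a stretch of chromosome 6 from 21672001 to 21678000, with 26 below 0.15 and a highest of 0.979 in M19. The last was on chromosome 1 from 181675001 to 181682000, where M24 was highest at 1.73.

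**Figure D4:**
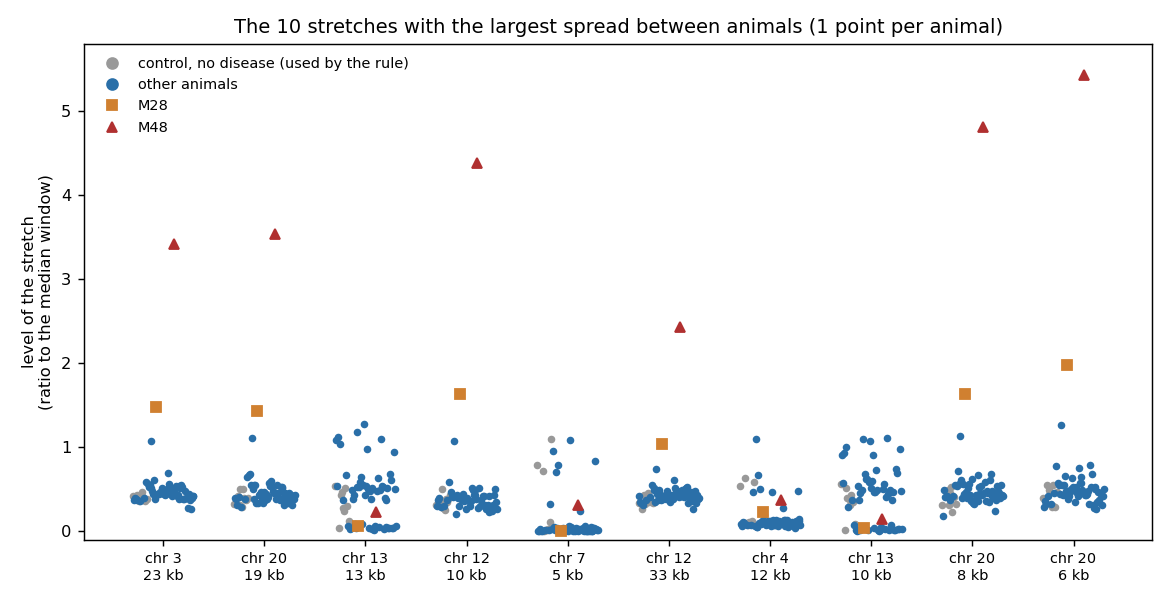
Level of the 10 stretches with the largest spread (vertical axis, ratio to the median window, starting just below 0), with 1 point per animal. Grey points are the 9 animals of the rule, squares M28 and triangles M48. In the stretches of chromosomes 3, 12 and 20 M48 lies far above the other animals, up to 5.44, and on chromosome 13 the animals form separate bands.

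The study compared atrazine lineage animals with a disease to those without, to find histone retention tied to each disease. None of these animals took part in choosing the members. The fits took in every window of the table that averaged 10 reads or more over the animals compared, with the 17 animals without disease whose counts stood in the disease tables. Between 30759 and 49202 members passed that minimum, according to the comparison, and the members that did not pass have no result. The minimum bears on each call: all 21 members called in the 6 comparisons averaged 10 reads or more only in the group where they were high, 10 in the disease or atrazine group and 11 in the other, and below 10 in the group where they were low. Had they been at the lower level in both groups they would not have been tested, so their number is a description. Leaving out 1 diseased animal at a time ended the call, or took the window below the minimum, in 8 of the 8 lean, 3 of the 3 kidney, 5 of the 5 testis and 1 of the 2 late puberty members. A window was called at an unadjusted p below 0.0001 with edgeR's quasi-likelihood test, the study's threshold. In the main fits, with edgeR or with DESeq2 in its place, no member had an adjusted p below 0.05 in any of the 6 comparisons. Fits under other settings that had such members are given at the end. In the main edgeR fits no member was called in more than 1 comparison. Over all windows tested an adjusted p below 0.05 was met by 4.07e-05% in the testis, 0.000126% in the lineage and 0% in the other comparisons. At an unadjusted p below 0.05 with edgeR were 3166 members in the lean comparison and 1181 to 1780 in the others, and these shares are given beside those of all windows. The 5 disease comparisons share the animals without disease, and each is given on its own.

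**Figure D5:**
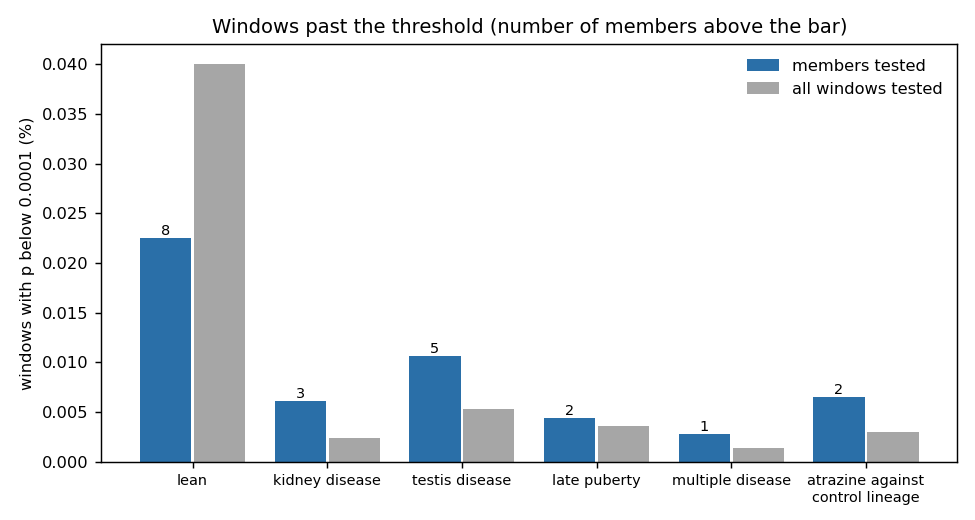
Percentage of windows with an unadjusted p below 0.0001 (vertical axis, starting at 0) among the members tested and among all windows tested, in the 6 comparisons, with the number of members above each bar. The members' share is lower than that of all windows for the lean animals, and rests on 1 to 5 members in the other comparisons.

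For the lean phenotype, assigned from fat cell size, body mass index and abdominal fat, 8 of 35513 members tested were called, 5 higher and 3 lower in lean animals, or 0.0225%. Of all windows tested 0.04% were called, 0.0167% higher and 0.0234% lower. The member with the smallest p among those higher was the window on chromosome 1 at 200296001 to 200297000. Its level was 1.98 in M28, 1.20 in M42, 0.967 in M54, 0.958 in M56 and 0.932 in M66, and 0.237 over a median of 0.351 to 0.914 in the animals without disease. In M48 it was at 2.61, and the 0.914 was that of M22. The groups did not overlap, with all 5 lean animals above the 17 others, and the log2 fold change was 1.41 ± 0.29 (SE; edgeR, adjusted p = 0.239), with the call lost without M28, at 1.17. The lean animals averaged 19 reads there and the others 9.76, under the minimum. The member that was lower with the smallest p was on chromosome 2 at 5226001 to 5227000, in a region that the study's site lists pair with Fam172a. M28 had no read there, M42 was at 0.0445, M54 at 0.112, M56 at 0.383 and M66 at 0.311, against 0.274 over 0.592 to 1.02, so that 3 of 5 lay below all animals without disease. Its log2 fold change was -2.002 ± 0.45 (SE; edgeR, adjusted p = 0.239), and the call was lost without M28, without M42 and without M54, at -1.81, -1.68 and -1.85. It passed the minimum through the animals without disease, which averaged 13.2 reads against 2.4 in the lean animals.

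The other 6 called members of this comparison had log2 fold changes between 1.23 and 2.02 in size. Those that were higher lay on chromosome 1 at 217617001, chromosome 11 at 73795001, chromosome 7 at 145381001 and chromosome 14 at 33521001, and in these the lean medians of 0.891 to 1.01 stood against medians of 0.355 to 0.417. The 2 that were lower lay on chromosome 15 at 92877001 and chromosome 5 at 118658001, with lean medians of 0.134 and 0.223 against 0.616 and 0.651. At an unadjusted p below 0.05 were 8.92% of the members tested and 11.4% of all windows tested. The median log2 fold change was 0.12 over the members tested and 0.01 over all windows; over the members tested it was 0.04 without M28 and -0.02 without M28 and M42. Without the minimum of 10 reads, which takes in all 93853 members, it was 0.03. Of the 5 higher members 3 were at 2 or more in M48, a class that held 4779 of the 35513 members tested. That class was also raised in the lean animals M28 and M42, with medians of 1.19 and 0.668. Its share among all windows called higher was not worked out, so these 3 are a description. Without M28 the number called was 4, with 0 higher, or 0.0101% of the members tested where 0.0153% of all windows were called. Over all windows 35 were then higher and 335 lower, against 399 and 560 with M28, so the loss of higher calls was not particular to the members. Without M66 it was 22, or 0.0565% where 0.149% of all windows were called. Without both M28 and M42, a choice made after seeing the data, 2 members were called, 0 of them among the 8, or 0.00521% where 0.00493% of all windows were called. Members at p below 0.05 went from 2309 higher and 857 lower to 616 higher and 948 lower (3746 higher and 3318 lower with all lean animals and no read minimum), and the share at p below 0.05 was 4.07% for members and 4.00% for all windows. The split into higher and lower at p below 0.05 was not worked out over all windows, so that of the members is a description.

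For kidney disease 3 of 49202 members tested were called, 0 higher and 3 lower in the diseased animals. Over all windows the share called was 0.00239%, with 0.0013% higher and 0.0011% lower. A pair of adjacent members on chromosome 1, at 113350001 and 113351001, lay in a region that the site lists pair with Luzp2, which encodes a leucine zipper protein. At 113351001 to 113352000 all 3 kidney animals (M23, M60 and M64) had 0 reads, while the 17 animals without disease ran from 0 over 0.486 to 1.32, with 4 of them at 0 as well. Against a floor of 3 reads over the 3 libraries the level was at least 14.0-fold lower (edgeR, adjusted p = 0.534), lower than the median of the animals without disease in 3 of 3. The window reached the minimum of 10 reads on average through the animals without disease, which held all 203 reads of the animals compared. Over the 57 animals 18 had no read in that window, so lack of reads was not particular to the kidney animals. At 113350001 the kidney animals reached 0.0732 and the others ran from 0 over 0.520 to 1.41. The remaining member, on chromosome 18 at 62379001 to 62380000, had a median of 0.146 in kidney animals and 0.979 in the others, with overlapping ranges. The member with the smallest p among those that were higher, on chromosome 1 at 68382001 to 68383000, did not pass the threshold, with levels of 1.04, 0.854 and 1.11 against 0 over 0.391 to 0.883. At an unadjusted p below 0.05 were 1389 members, 2.82% of those tested, and 2.77% of all windows. Without M60 the number called was 1, or 0.00247% where 0.00503% of all windows were called. The window at 113351001 was then not called, although M23 and M64 still had 0 reads there. Without the animals whose treatment tag goes against their lineage, 1 kidney animal, M23, was left, and each of the 3 calls named here was lost. A group of 1 animal has no spread of its own, and M23 still had 0 reads at 113351001.

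For testis disease 5 of 47202 members tested were called, 2 higher and 3 lower, where 0.00529% of all windows were called, 0.00297% higher and 0.00232% lower. The window on chromosome 11 at 27605001 to 27606000 was lower in testis disease animals, at 0.138 in M29, 0.197 in M32, 0.0666 in M33 and 0.103 in M41 against 0.237 over 0.548 to 0.901. These groups did not overlap, and the log2 fold change was -2.07 ± 0.43 (SE; edgeR, adjusted p = 1.0, below the other group's median in 4 of 4), with the call lost without M41, at -1.94. The testis disease animals averaged 3 reads and the others 12.2, so the window passed the minimum through the latter. The window on chromosome 2 at 202656001 to 202657000 was higher, at 1.24 in M29, 0.787 in M32, 1.07 in M33 and 0.993 in M41 against 0 over 0.256 to 1.05. Its ranges overlapped, and the log2 fold change was 1.59 ± 0.35 (SE; edgeR, adjusted p = 1.0, above the other group's median in 4 of 4). With DESeq2 the fold change was 1.57 and the window was not called. The testis disease animals averaged 23 reads and the others 7, and with a mean of 10.05 over both the window fell below the minimum, and was not tested, without any 1 of M29, M32, M33 and M41. The other 3 lay on chromosome 20 at 4049001, where the medians were 0.0427 and 0.588, chromosome 3 at 63739001, with 0.198 and 0.564, and chromosome 17 at 57903001, with 0.914 and 0.442 in animals with and without testis disease. At an unadjusted p below 0.05 were 3.77% of the members tested and 3.65% of all windows. The number called was 3 without M29, without M33 and without M41, where 0.00371%, 0.00377% and 0.00565% of all windows were called.

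For late puberty 2 of 45561 members tested were called, 0 higher and 2 lower, where 0.00359% of all windows were called, 0.000857% higher and 0.00274% lower. The first was the window on chromosome 16 at 64977001 that also had the most reads of its range. Late puberty animals were at 0.133 in M35, 0.292 in M36, 0.197 in M38, 0.249 in M50 and 0.338 in M51, and animals without disease ran from 0 over 0.357 to 10.5. Its log2 fold change was -2.79 ± 0.59 (SE; edgeR, adjusted p = 1.0), and all 5 late puberty animals lay below the median of the other group. Of the 17 animals without disease, 5 were at 2 or more, and the window reached the minimum of 10 reads on average through that group, the late puberty animals holding 2 to 8 reads each. With DESeq2 the log2 fold change of this window was -2.89, and it was not called. The second lay on chromosome 7 at 76920001 to 76921000, with a median of 0.146 in late puberty animals and 0.648 in the others, and 3 of 5 below all 17. The member with the smallest p among those that were higher, on chromosome 18 at 15795001 to 15796000, had levels of 0.438 to 1.13 against 0.0509 to 0.627 and was not called. The share at an unadjusted p below 0.05 was 3.56% for the members tested and 3.49% for all windows. Without M50 the number called was 4, or 0.00907% where 0.00454% of all windows were called.

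For multiple disease 1 of 36033 members tested was called, and was higher, where 0.00137% of all windows were called, 0.000622% higher and 0.000747% lower. It was the window on chromosome 10 at 3652001 to 3653000, in a region that the site lists pair with Cpped1, which encodes a protein phosphatase. Its level ran from 0.130 over 0.706 to 1.23 in the 14 animals with multiple disease and from 0.235 over 0.345 to 0.682 in the others. In 9 of the 14 it was above all animals without disease and in 1, M48, below them, and the log2 fold change was 0.90 ± 0.20 (SE; edgeR, adjusted p = 1.0). The window averaged 13.9 reads in the animals with multiple disease and 8.41 in the others, so it passed the minimum through the former. This call was lost with all 19 animals without disease, at 0.78, and without the animals whose treatment tag goes against their lineage, at 0.90. The member on chromosome 7 at 6000001 to 6001000, with the smallest p among those that were lower, was at 0.123 over 0.369 to 0.979 against 0.278 over 0.777 to 1.77 and was not called. The share at an unadjusted p below 0.05 was 3.28% for the members tested and 3.31% for all windows. Without M48 the number called was 5, or 0.0126% where 0.00457% of all windows were called.

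The atrazine and control lineages could be compared without the rule's animals among those with a disease, 31 against 7, although the kinds of disease differed between the lineages. The members were chosen for low levels in other control lineage animals. Whatever the 7 controls share with those animals favours higher levels in the atrazine lineage, so the direction below is partly set by the choice. Of 30759 members tested 2 were called, both higher in the atrazine lineage, where 0.00302% of all windows were called, 0.0021% higher and 0.000922% lower. Without the read minimum 3 members were called higher and 10 lower, where 70 and 90 of all windows were. The window on chromosome 10 at 34867001 to 34868000 ran from 0 over 0.490 to 1.29 in the atrazine lineage and from 0.0768 over 0.156 to 0.284 in the controls. In 28 of 31 atrazine lineage animals it was above all 7 controls, and the log2 fold change was 1.67 ± 0.38 (SE; edgeR, adjusted p = 1.0). It passed the minimum through the atrazine lineage, which averaged 11.9 reads against 3.43 in the controls. In the 9 control lineage animals of the rule the same window was at 0.143 to 0.662, within the range of the atrazine lineage. The second lay on chromosome 6 at 31020001 to 31021000, from 0.195 over 0.547 to 1.17 against 0.0781 over 0.208 to 0.473. A member on chromosome 5 at 25341001 to 25342000, lower in the atrazine lineage at 0.0926 over 0.498 to 0.839 against 0.614 over 1.00 to 1.19, did not pass the threshold. At an unadjusted p below 0.05 were 4.06% of the members tested and 3.62% of all windows, and the median log2 fold change was 0.08 over the members tested and 0.01 over all windows. Without M28 and M48, a choice made after seeing the data, 8 of 36561 members tested were called, 6 higher and 2 lower, where 0.00886% of all windows were called. The window on chromosome 10 was among them, at 1.62, and that on chromosome 6 was not. The share at an unadjusted p below 0.05 (edgeR) was then 4.38% for members and 4.46% for all windows, and the median log2 fold change over the members tested was 0.03.

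The study's lists of differential methylation and histone retention regions touched 207 members (0.221%) in 181 of 4073 regions, where 0.251% of all windows of chromosomes 1 to 20 were in a listed region. Their gene names show what some members lie near, and those given below were picked from 107 such regions with a name. The lists were made by the study from animals of the same experiment, so a member's place on them is no independent evidence. By its title the list of lean histone regions is at a stricter p than the others, and so holds part of the lean regions the study counted. The shares above are those of the lists as given, with all members and all windows as their bases. The study tested only windows that reached a minimum mean read count, and members reached it less often. In the kidney comparison made here, 49202 of the 93853 members passed that minimum, as did 2464876 of the 2782040 windows of the table. Shares among windows that could be listed were not worked out, so no shortfall of members is read from these values. The names were read from page images and kept where RefSeq holds the symbol. A region of 3 members on chromosome 1 from 88168001 to 88171000 is paired with Catsperg, a subunit of the sperm calcium channel, and Kcnk6, a potassium channel, and ran from 0.0440 over 0.465 to 3.00, the highest in M48. The member paired with Boll, an RNA-binding protein of germ cells, on chromosome 9 at 61927001 to 61928000, ran from 0 over 0.533 to 1.03. The member paired with Tssk1b, a kinase of the testis, on chromosome 11 at 87250001 to 87251000, ran from 0 over 0.556 to 1.28.

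Genes with other roles were paired with members as well. The regions of Rrp36 and Cul7 and of Sp3 are from the lists of differential methylation. Those of Catsperg, Boll, Tssk1b, Camk2g and Slc22a5 are from the lists of histone retention. A region of 3 members on chromosome 9 from 16629001 to 16632000, paired with Rrp36 and Cul7, a ribosome assembly factor and a ubiquitin ligase subunit, was at 0.453 in the rule's animals and ran from 0.237 over 0.468 to 3.22, the highest in M48. The pair of members at Camk2g, a calcium-dependent kinase, on chromosome 15 from 3961001 to 3963000, ran from 0.167 over 0.517 to 1.63. The member paired with Sp3, a zinc finger transcription factor, on chromosome 3 at 59637001 to 59638000, had no high animal and ran from 0 over 0.547 to 0.980. The member paired with Slc22a5, the carnitine transporter, on chromosome 10 at 39222001 to 39223000, was at 0.369 in the rule's animals and had a median of 0.863 in the other 57, with a highest level of 1.73 in M65. The low value in the rule's animals is what made that window a member, so the gap is no comparison of groups. Of these 7 regions, those of Catsperg, Rrp36 and Camk2g had M48 as their highest animal.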

How the data were processed

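Histone H3 ChIP-seq libraries of sperm from 66 rats were analysed, 1 more of the 67 listed having no counts. Per the methods and labels, the authors cleaned reads with Trimmomatic, mapped them to Rnor_6.0 with Bowtie2 and deposited raw read counts per 1 kb window, not corrected for an input library. The methods name an antibody to all H3 or to a modified H3, and the labels the former. The methods describe sperm of several males combined, while the deposited columns are 1 per animal. A further 298 columns of RPKM values and repeat tables, and the authors' own fold changes and p-values, were not used. Groups came from the labels.

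Counts were scaled to the table total for levels. Windows were tested with edgeR 4.0.16 in R 4.3.3 (glmQLFit, two-sided, TMM, mean of at least 10 reads, dispersion trend from 200000 windows, Benjamini-Hochberg over all windows tested), and with DESeq2 1.42.0 as an alternative. The procedure was tested on simulated data. Other settings were no filter, DESeq2's size factors, all 19 animals without disease, no animals with a contradicting tag, leaving out animals, and other rules for the members. Named windows were the 10 longest stretches, the 10 stretches of 5 or more with the largest variance, the smallest p per comparison and direction, the member with the most reads per range, those nearest to 0.2 and 0.5, and those on the study's site lists. The members and lists were chosen with earlier results of these data known. The methods put 10 libraries in a sequencing lane, but which animals shared a lane is not given in the sources used here. A median member holds 9 reads per animal, and intervals or floors on such counts cover counting error only. One member on the site lists is not reported here.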

Additional observations from a re-analysis of the deposited data

Results flagged for a closer look

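A sample far from the rest of its group, by Dixon's criterion for groups of 4 to 10, was found in 23 of 116 group checks of member levels, a criterion that chance meets in about 1 in 20 groups of independent values. That rate is no yardstick here, since many of the stretches and windows were chosen for their spread or their p, and many checks concern the same animals.

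Among the 7 control lineage animals with a disease, M17 was highest in the mean level over the members (0.456). It was also highest in the variable stretches on chromosome 3 at 9383001 (0.586), chromosome 20 at 6822001 (0.645), chromosome 12 at 52670001 (0.588), chromosome 7 at 4538001 (0.322), chromosome 4 at 13596001 (0.471) and chromosome 20 at 5780001 (0.776). In the long stretches it was highest on chromosome 18 at 29699001 (0.414) and chromosome 9 at 95177001 (0.392), and lowest on chromosome 14 at 65428001 (0.213) and chromosome 13 at 319001 (0.211). In the same group M3 had the largest share of members without a read (12.1%), with the smallest library of the series.

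Among the 5 lean animals, M28 was highest on chromosome 20 at 6822001 (1.43), 3841001 (1.64) and 5780001 (1.98), on chromosome 12 at 52670001 (1.64), and in the single member on chromosome 1 at 200296001 (1.98). M66 was the highest lean animal in the stretch on chromosome 7 at 4538001 (0.839).

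In the late puberty group M35 had the largest share of members without a read (2.15%) and the lowest level of the stretch on chromosome 8 at 96266001 (0.291). M50 was highest on chromosome 7 at 4538001 (0.241) and lowest on chromosome 13 at 319001 (0.289). Among testis disease animals M33 had the largest share of members without a read (2.72%). M33 and M35 were the smallest libraries of their groups, with 39464585 and 39448995 reads.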

How the results depend on the processing

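With few calls per comparison, the counts of called members moved with the settings, and so did their split into higher and lower. No named window changed direction where it was tested. The median log2 fold change over the members tested turned from 0.12 to -0.02 for lean without M28 and M42 and to 0.03 without the filter, from 0.05 to -0.01 for multiple disease without M48, and from 0.08 to 0.03 for the lineages without M28 and M48. Without the filter on low counts the number of members called was 19 for lean, 8 for kidney, 12 for testis, 15 for late puberty, 5 for multiple disease and 13 for the lineages, where 1024, 93, 164, 141, 51 and 160 of all windows were called. The shares were 0.0202%, 0.00852%, 0.0128%, 0.016%, 0.00533% and 0.0139% of the members against 0.0385%, 0.0035%, 0.00617%, 0.0053%, 0.00192% and 0.00601% of all windows. Of these members 7 were higher and 12 lower for lean, 2 and 6 for kidney, and 4 and 8 for testis. The split was 7 and 8 for late puberty, 4 and 1 for multiple disease, and 3 and 10 for the lineages. Over all windows it was 423 and 601, 63 and 30, 85 and 79, 73 and 68, 25 and 26, and 70 and 90. An adjusted p below 0.05 (edgeR) was then met by 1 late puberty and 4 lineage members, and by 2 and 41 of all windows. With DESeq2's Wald test it was 19 for lean, 1 for late puberty, 3 for multiple disease and 6 for the lineages, where 1684, 97, 176 and 326 of all windows were called. With all 19 animals without disease it was 15 for lean, 4 for late puberty and 0 for multiple disease, where 1777, 85 and 34 of all windows were called. For multiple disease 2040 members were then at an unadjusted p below 0.05 (edgeR), 3.63% of those tested, and 3.72% of all windows. Without animals with a contradicting treatment tag it was 5 for kidney, 5 for late puberty and 2 for multiple disease, where 130, 132 and 14 of all windows were called; the kidney group then held 1 animal, assumed to vary like the animals without disease, and the kidney and multiple disease calls shared 0 members with the main ones. With all atrazine lineage animals 1 member, and 149 of all windows, were called between the lineages. Leaving out M28 and M42 together, chosen after seeing the data, gave 2 for lean, with 119 of all windows, and leaving out M28 and M48, chosen likewise, gave 8 for the lineages, with 214. Leaving out 1 diseased animal at a time gave 4 to 22 for lean, 1 to 4 for kidney, 3 to 6 for testis, 2 to 4 for late puberty (1 member and 7 of all windows at an adjusted p below 0.05 without M35, edgeR) and 5 for multiple disease without M48, the only animal left out there. Over all windows these fits called 326 to 3592, 23 to 122, 91 to 138, 68 to 111 and 111. DESeq2's size factors changed no count by more than 1.5 times. For the named windows, 73 values under other settings kept their side of the threshold, 13 lost it and 5 gained it. Settings under which a window fell below the read minimum are not in these counts. Among them are the fits that left out 1 testis disease animal, for the window on chromosome 2 at 202656001. Members chosen at 0.3 to below 0.4 numbered 26050 and had a median level of 0.406 against 0.444. The median over the 9 animals in place of the mean gave 97128 members, 79709 of them shared, and TMM library sizes gave 93854, with 93665 shared and a highest level of 0.957 against 0.586. No paired analysis was possible because the groups have no replicate number in common, every number naming a different animal. Depth limits the comparisons: a mean of 10 reads was reached by 32.8% of the members in the lineage and by 52.4% in the kidney comparison, the lowest and highest shares.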
